A study of Mus musculus with 6 samples.

Results

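Peaks of the repressive histone mark H3K9me2 were set against peaks of input DNA in gastrocnemius muscle of control mice. The 3 peak lists came from 1 H3K9me2 library and 2 input libraries, and held 8083 of the 48419 peaks that the 6 libraries of the study had on chromosomes 1 to 19, X and Y. Every peak on these chromosomes was used, and a shared base (overlap of 1 bp or more) put a peak into a class. There were 3703 H3K9me2 peaks, 3071 peaks in input 1 and 1309 in input 2. All mice were C57BL/6 males 4 weeks old and carried floxed Phf2 alleles (Phf2 flox/flox). The control group (Ctrl) lacked Cre (Acta1 Cre-), so its Phf2 alleles were floxed and not recombined, and the conditional knockout group (CKO) carried Acta1 Cre, which is driven by the promoter of the skeletal muscle actin gene. The CKO lists of H3K9me2 and input, and the H3K4me3 list of Ctrl muscle, served only as readouts that took no part in forming the classes. For H3K4me3 the title of the sample says wild type, whereas its genotype is given as that of Ctrl. The labels do not say whether the 3 Ctrl libraries came from the same animal or whether tissue of several animals was pooled.

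H3K9me2 is written mainly by the methyltransferases EHMT1 and EHMT2 and removed by JmjC-domain enzymes. PHF2 has been described as one of these. The mark is typical of silent chromatin, covers broad domains in gene-poor DNA and often lies at the nuclear lamina. CUT&RUN cuts DNA next to a bound antibody with a tethered nuclease and releases small fragments. An input is DNA sequenced without selection by the antibody, and its peaks show where fragments pile up without it. Open promoters, which fragment easily, and repeated sequence, where reads from many copies can be placed on few, are common sites of such pile-up. The labels do not say how the inputs were made. Whole muscle holds fibres, satellite cells, fibroblasts, vessels, nerve and immune cells, so fewer cells with the mark and less of it per cell cannot be told apart.

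Most H3K9me2 peaks stood apart from the inputs, and so did most input peaks from H3K9me2. Of the 3703 H3K9me2 peaks, 3262 (88.1%, exact 95% binomial interval 87.0 to 89.1) overlapped neither input. The other 441 (11.9%, 10.88 to 12.996) overlapped an input peak: 256 input 1 alone, 79 input 2 alone and 106 both. Read from the inputs, 361 of 3071 peaks of input 1 (11.8%, 10.6 to 12.9) and 184 of 1309 of input 2 (14.1%, 12.2 to 16.1) overlapped an H3K9me2 peak. This left 2710 and 1125 input peaks without H3K9me2. Of those, only 198 of input 1 (6.45% of its 3071 peaks) and 201 of input 2 (15.4% of its 1309) overlapped the other input. Most input peaks without H3K9me2 thus stood apart from the other input too. Standing apart from an input is therefore not particular to H3K9me2. With 1 H3K9me2 library there is no replicate of the mark, and no test between groups was made. The intervals are exact (Clopper-Pearson) and cover counting error only.

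**Figure D1:**
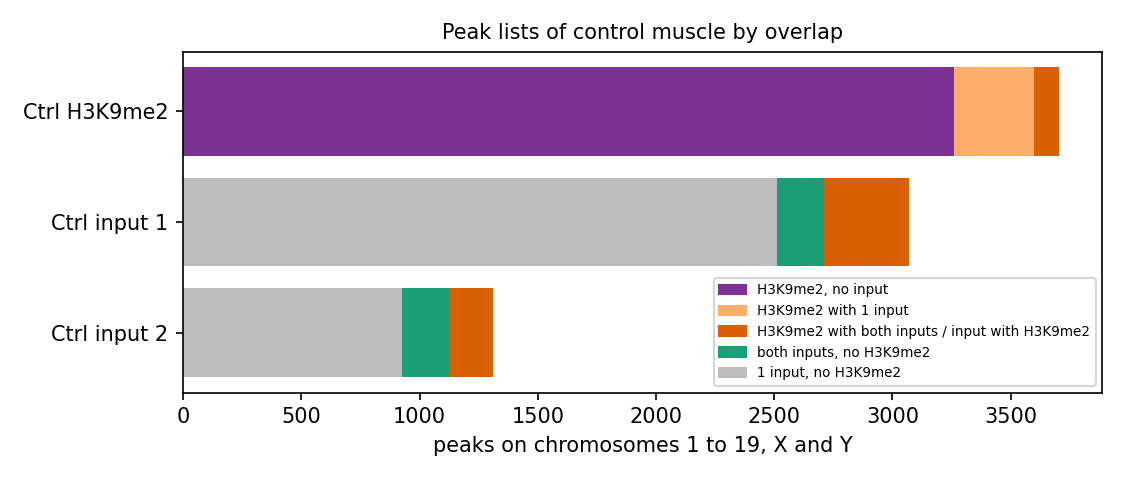
Number of peaks (horizontal axis) in the Ctrl H3K9me2 list and both Ctrl input lists on chromosomes 1 to 19, X and Y, with bars divided by overlap of 1 bp or more. The undivided purple stretch holds the 3262 H3K9me2 peaks without input; the grey and green stretches together hold 2710 and 1125 input peaks without H3K9me2.

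A single peak in any of the lists is a small count. Summits rested on a median of 6 fragments in each of the 3 lists, over a background coverage of 0.391 fragments per position for H3K9me2, 0.294 for input 1 and 0.292 for input 2. Fold, as the authors' lists give it, is the height of a peak's summit over its local background. Which control, if any, lay behind that background is not given. The listed values match a ratio with 1 added to both summit and background. Fold therefore lies below the plain ratio, the more so over a low background. H3K9me2 peaks without input had a median fold of 4.89 and none above 10.3, and those with both inputs a median of 5.93, up to 27.7. The missing overlap of a peak of 6 fragments therefore says that no peak was listed in the other library, not that the DNA there was different. The class border was thinly filled. Only 14 H3K9me2 peaks overlapped an input peak by under 100 bp (median fold 4.52), and only 21 of those without overlap had an input peak within 1 kb (median fold 4.87).

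Sequences of promoters from each class show what the peaks at genes look like. They come from RefSeq (GRCm38.p6, the assembly behind mm10), run 5′ to 3′ on the gene's strand from 250 bases before to 50 after the gene's start, and carry CG dinucleotides in capitals. The first 3 are the promoters with the highest H3K9me2 peaks without input. They belong to Gm32687 (chr10:81863641-81863940, plus strand), a predicted gene, to Zfp619 (chr7:39517516-39517815, plus strand), a zinc finger gene, and to Etnk1 (chr6:143166980-143167279, plus strand), which encodes an ethanolamine kinase of phospholipid synthesis.
Gm32687: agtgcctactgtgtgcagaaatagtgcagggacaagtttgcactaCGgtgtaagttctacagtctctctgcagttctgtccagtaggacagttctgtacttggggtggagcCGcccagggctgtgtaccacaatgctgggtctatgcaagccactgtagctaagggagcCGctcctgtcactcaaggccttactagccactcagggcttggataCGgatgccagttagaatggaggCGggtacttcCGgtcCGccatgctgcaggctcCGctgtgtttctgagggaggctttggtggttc
Zfp619: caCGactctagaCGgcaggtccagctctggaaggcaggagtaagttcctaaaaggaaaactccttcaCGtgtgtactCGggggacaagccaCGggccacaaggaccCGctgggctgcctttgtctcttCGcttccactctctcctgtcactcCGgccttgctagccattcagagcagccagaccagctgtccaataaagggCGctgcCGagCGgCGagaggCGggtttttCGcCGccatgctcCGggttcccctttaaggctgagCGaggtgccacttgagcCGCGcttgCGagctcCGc
Etnk1: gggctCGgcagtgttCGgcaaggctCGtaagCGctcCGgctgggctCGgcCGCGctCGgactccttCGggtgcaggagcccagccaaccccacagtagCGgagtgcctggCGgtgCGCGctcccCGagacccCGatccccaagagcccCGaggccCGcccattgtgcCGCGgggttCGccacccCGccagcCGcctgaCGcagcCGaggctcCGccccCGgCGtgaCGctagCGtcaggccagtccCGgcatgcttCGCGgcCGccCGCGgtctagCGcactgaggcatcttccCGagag
The Gm32687 window held 8 CG dinucleotides, Zfp619 21 and Etnk1 38. Their H3K9me2 peaks had folds of 7.81, 7.56 and 7.26 on 10, 12 and 11 summit fragments, and all of these windows also overlapped an H3K4me3 peak. The Etnk1 peak covered the whole window (chr6:143166947-143167475), the Zfp619 peak 132 of its bases and the Gm32687 peak 67.

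The next sequences are the promoters with the highest H3K9me2 peaks that also overlapped an input. Vmn2r29 (chr7:7278240-7278539, minus strand) is a vomeronasal receptor gene, and 4931408C20Rik (chr1:26687411-26687710, minus strand) is a gene without an assigned function.
Vmn2r29: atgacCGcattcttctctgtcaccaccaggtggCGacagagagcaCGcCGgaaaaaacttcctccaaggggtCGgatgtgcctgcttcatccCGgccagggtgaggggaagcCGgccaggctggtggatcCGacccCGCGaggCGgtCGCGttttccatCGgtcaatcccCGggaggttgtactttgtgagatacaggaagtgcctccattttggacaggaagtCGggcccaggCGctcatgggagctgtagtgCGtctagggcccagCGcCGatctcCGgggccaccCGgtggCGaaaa
4931408C20Rik: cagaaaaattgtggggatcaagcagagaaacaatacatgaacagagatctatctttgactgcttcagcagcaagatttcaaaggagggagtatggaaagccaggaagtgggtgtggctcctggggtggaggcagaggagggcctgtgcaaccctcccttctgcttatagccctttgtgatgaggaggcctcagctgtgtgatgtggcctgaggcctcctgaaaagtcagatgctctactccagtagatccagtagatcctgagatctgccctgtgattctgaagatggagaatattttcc
Vmn2r29 held 23 CG dinucleotides and overlapped H3K4me3. The 4931408C20Rik window held 0 and did not. At Vmn2r29 the folds were 12.4 in H3K9me2, 19.2 in input 1 and 13.8 in input 2. At 4931408C20Rik the fold was 9.65 in H3K9me2 and 4.64 in input 1, and no input 2 peak was listed. The last sequence is the promoter with the highest input 1 peak that was shared by input 2 and lacked H3K9me2, that of Pum2 (chr12:8674009-8674308, plus strand), which encodes an RNA-binding translational repressor.
Pum2: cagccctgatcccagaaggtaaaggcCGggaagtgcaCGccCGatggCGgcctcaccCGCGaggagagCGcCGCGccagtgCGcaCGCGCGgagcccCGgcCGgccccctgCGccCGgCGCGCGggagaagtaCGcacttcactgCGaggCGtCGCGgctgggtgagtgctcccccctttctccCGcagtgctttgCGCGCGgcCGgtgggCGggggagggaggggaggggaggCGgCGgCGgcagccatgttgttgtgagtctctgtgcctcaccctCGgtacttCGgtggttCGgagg
It held 37 CG dinucleotides and overlapped H3K4me3, and its input folds were 8.19 and 4.96.

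At promoters the median CG content of every class was above that of all promoters. H3K9me2 peaks without input touched 249 promoter windows of 226 genes, with a median of 24 CG dinucleotides (quartiles 18 to 32). Windows touched by H3K9me2 peaks with input had a median of 29.5 (98 windows), those of input 1 without H3K9me2 26 (880 windows) and those of input 2 28 (374 windows). All 21238 windows of the 17469 protein-coding genes matched had a median of 13. H3K4me3 overlapped 92.8% of the windows with H3K9me2 alone and 93.9% of those with input. It overlapped 93.9% and 94.4% of those of the inputs, against 53.2% of all windows. Contrasts with all windows were therefore not separated from H3K4me3. The GC-box letters GGGCGG, which themselves hold a CG, were found on either strand in 79.5% of the windows with H3K9me2 alone (74.0 to 84.4) and in 78.1% and 81.8% of those of the inputs, against 46.2% of all windows. The TATA-box letters TATAAA were in 4.42%, 3.41% and 3.48%, against 12.6% of all. The letters CCAAT were in 117 of 249 windows with H3K9me2 alone (47.0%, 40.7 to 53.4), in 34.0% of those of input 1 (30.8 to 37.2) and 29.1% of those of input 2 (24.6 to 34.0), against 38.2% of all windows. For CCAAT the interval of H3K9me2 alone did not overlap those of the inputs. It did overlap that of H3K9me2 with input, where 36 of 98 windows held the letters (36.7%, 27.2 to 47.1). Neighbouring genes can share a window's sequence on opposite strands, so the windows are not independent of each other. A match describes letters in the window and not a bound site.

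H3K9me2 peaks without input lay mostly in DNA between genes, and input peaks without H3K9me2 lay most often at gene ends. By peak centre, 2223 of the 3262 H3K9me2 peaks without input were intergenic (68.1%, 66.5 to 69.7), where intergenic sequence made up 58.7% of the chromosomes' length. The share was 53.7% (49.0 to 58.5) for H3K9me2 peaks with input, 32.9% (31.1 to 34.7) for input 1 without H3K9me2 and 30.5% (27.8 to 33.3) for input 2. Within 2 kb of either end of a protein-coding gene, which is 5.59% of the length, the order was the opposite. There lay 10.7% (9.63 to 11.8) of H3K9me2 peaks without input, 28.3% (24.2 to 32.8) of those with input, and 46.5% (44.6 to 48.4) and 49.7% (46.7 to 52.7) of the input peaks. Gene bodies held 21.2%, 17.9%, 20.6% and 19.8%, all under their 35.7% of the length. At intergenic sites and at gene ends the intervals of H3K9me2 without input did not overlap those of any other class, while in gene bodies all 4 classes overlapped in their intervals.

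**Figure D2:**
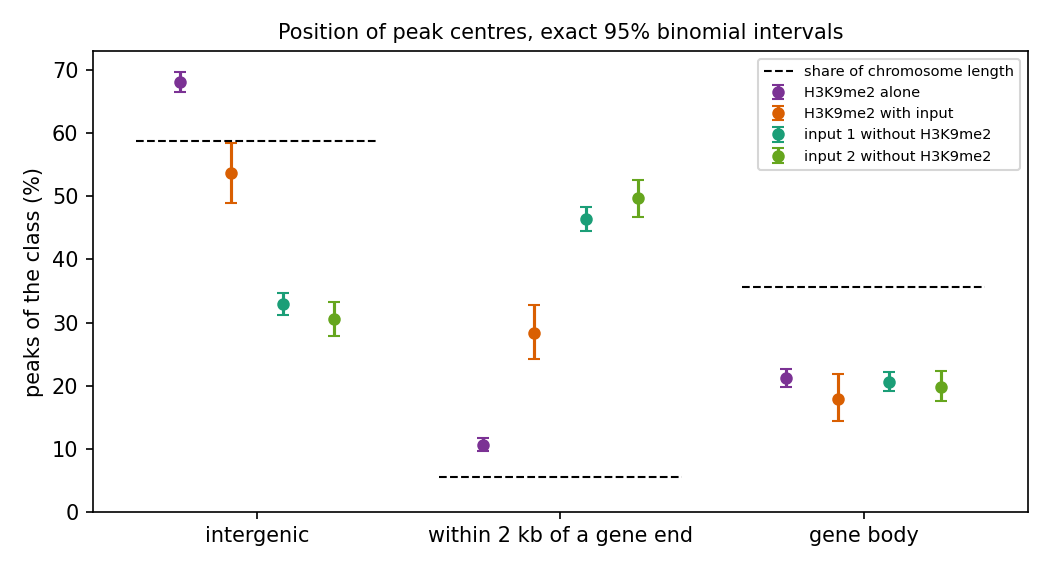
Share of peaks in each class (vertical axis, percent) whose centre was intergenic, within 2 kb of a gene end or in a gene body, with exact 95% binomial intervals; dashed lines give each position's share of chromosome length. H3K9me2 without input is highest among intergenic sites at 68.1% and lowest at gene ends at 10.7%.

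Intergenic H3K9me2 peaks also lay farther from genes. Their median distance to the nearest protein-coding gene was 139 kb without input and 99.6 kb with input, against 62.4 and 55.4 kb for the input peaks without H3K9me2. Over 500 kb from any gene lay 17.5% (15.9 to 19.1) of the intergenic H3K9me2 peaks without input, against 7.17% (5.57 to 9.07) and 9.04% (6.22 to 12.6) of the input ones and 14.0% of intergenic length. Within 10 kb of a gene lay 6.97% (5.95 to 8.11) against 13.6% and 12.2%, and 12.0% of intergenic length.

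The contrast in position depended on peak height. Among H3K9me2 peaks without input, the intergenic share was 62.6% (59.5 to 65.6) at up to 5 summit fragments, 67.5% at 6, 68.5% at 7 to 8, 77.2% (73.3 to 80.8) at 9 to 12 and 86.2% (74.6 to 93.9) at 13 or more. For input 1 without H3K9me2 it was 38.2%, 29.7%, 28.8% and 25.9% over the first 4 of these bins, and for input 2 34.5%, 30.7%, 20.7% and 20.2%. At 13 or more fragments the inputs were intergenic as well, 74.6% (62.1 to 84.7) of 63 peaks and 83.8% (68.0 to 93.8) of 37, and their intervals overlapped that of the 58 H3K9me2 peaks of that height.

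**Figure D3:**
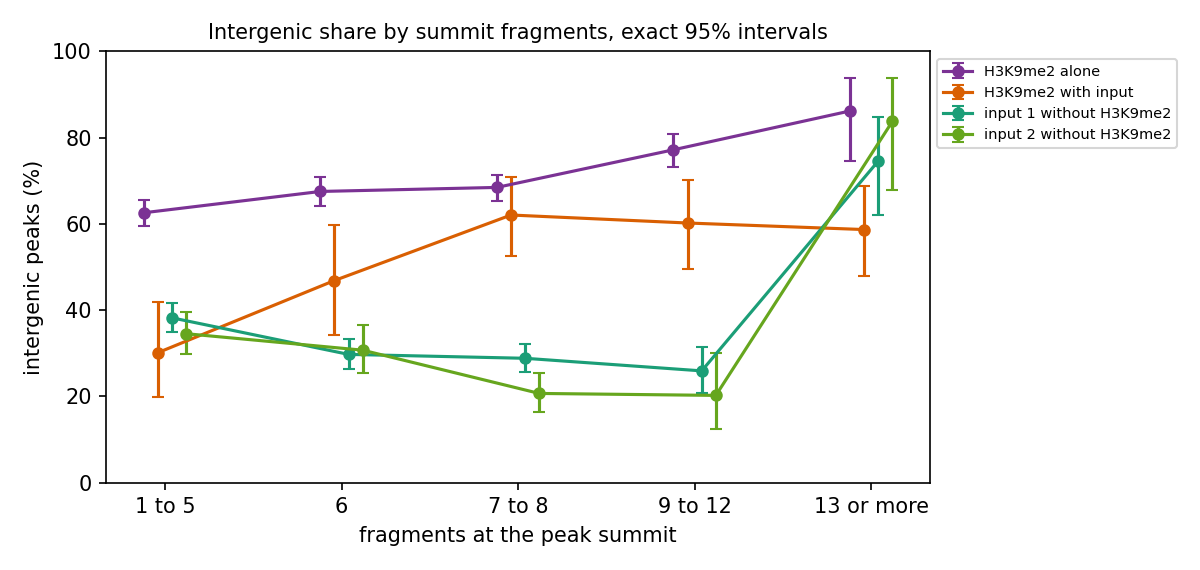
Intergenic share of peaks (vertical axis, percent) by the number of fragments at the summit (horizontal axis) for the 4 classes, with exact 95% binomial intervals. H3K9me2 without input lies above both inputs up to 12 fragments, and the 3 classes overlap in their intervals at 13 or more.

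Of the 15 highest H3K9me2 peaks without input, most were intergenic, those in Grik2 and Galntl6 lay in gene bodies and that at Gm51597 lay at a gene end. First was chr14:94548727-94549103 (fold 10.3, 16 fragments), 656 kb from the cell adhesion gene Pcdh9, with no peak in any other list of the study. It was followed by chr5:15806944-15807406 (9.89, 16 fragments), 92.9 kb from Speer4c, which the CKO H3K9me2 list also held. Grik2, a kainate receptor gene, carried its peak in the body at chr10:49444412-49444789 (9.87, 15 fragments). Other bodies in the top 10 by fold were those of Galntl6 (8.47), Tmprss11a, a membrane serine protease gene (8.23), Gabra3, a GABA receptor subunit gene (8.18), Rims2, of the synaptic active zone (7.92), Adgrl3, an adhesion receptor gene (7.88), Slc26a7, an anion transporter gene (7.71), and Cldn34d, a claudin gene (7.56). The body list ended with a pair of peaks in A530032D15Rik (7.53 and 7.48), over a background of 1.39 and 1.41 fragments, where the coverage of the library was 0.391. None of these 10 body peaks overlapped H3K4me3.

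At gene ends, most of the highest peaks without input overlapped H3K4me3, but the very highest did not. After Gm51597, a predicted gene with 43 fragments over a background of 3.76 (fold 9.25), and the 3 genes shown above came Tom1, an endosomal sorting gene (7.22), Pex7, a peroxisomal import receptor gene (7.19), Ranbp2, of the nuclear pore (7.18), Dmac1, of mitochondrial complex I assembly (7.18), Fsip2, of the sperm tail (7.02), and Rab4b, of endosome recycling (6.94). Of these 10, all but Gm51597 and Fsip2 overlapped an H3K4me3 peak. Over the whole class, 279 of the 348 H3K9me2 peaks without input at gene ends did (80.2%, 75.6 to 84.2), against 20 of 2223 intergenic (0.900%, 0.550 to 1.39) and 24 of 691 in bodies (3.47%, 2.24 to 5.12). The gene table used here gives start and end but no exons, so exon, intron and UTR were not assigned, and a gene end is either end.

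Nearly all of the highest H3K9me2 peaks were shared with input, but most shared peaks were not high. Of the 441 H3K9me2 peaks with input, 418 had a fold under 10. Their median was 5.17, against 4.89 for those without input. Of the 24 H3K9me2 peaks with a fold of 10 or more, 23 overlapped an input and 21 overlapped both. The exception was the chr14 peak above. The share with an input peak was 8.53% (6.07 to 11.6) among H3K9me2 peaks under a fold of 4, 9.39% from 4 to 5, 12.1% from 5 to 6, 16.2% (13.2 to 19.6) from 6 to 8 and 29.4% (17.5 to 43.8) from 8 to 10. From the side of the inputs the same share was 5.93% under a fold of 4 and 68.8% (49.99 to 83.9) at 10 or more in input 1, and 7.10% and 78.1% (60.03 to 90.7) in input 2. In all 3 lists, then, the highest peaks were shared more than the low ones. Of the 106 H3K9me2 peaks with both inputs, 51 overlapped peaks in the H3K4me3 and both CKO lists as well.

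The shared sites named here were ranked by the lower of the H3K9me2 and input folds. At chr9:35305239-35305589, 29.5 kb from Rpusd4, the fold was 27.7 in H3K9me2, 30.9 in input 1 and 32.1 in input 2. In the body of Zc3h7a, a zinc finger gene of microRNA processing, it was 25.2, 26.8 and 27.2 (chr16:11143898-11144314). In that of Filip1l it was 22.0, 26.98 and 26.7. Aida had 21.002, 19.6 and 20.2, and Jarid2, a cofactor of the Polycomb complex PRC2, 17.9, 22.6 and 22.4. Between genes, chr3:5860415-5860808 had 23.04, 26.95 and 26.95, and chr11:109011652-109012102, 61.1 kb from Axin2, 19.8, 25.4 and 25.01. At chr2:98666553-98667324, 1035 kb from Lrrc4c, folds were 16.4, 17.6 and 18.5, and at chr15:75086276-75087027, 21.5 kb from Ly6c2, 16.4, 14.5 and 13.2. At chrX:170005199-170005619, 14.6 kb from Mid1, they were 14.4, 15.3 and 14.8. Each of these 10 sites overlapped peaks in both CKO lists, and all but those in Aida and near Mid1 overlapped H3K4me3. A fold is relative to the local background of its list, and the control behind that background is not given. These values therefore stand side by side and do not measure a difference.

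Further high shared sites lay at gene ends and in gene bodies. At the end of Hjurp, which encodes a chaperone of centromeric histone H3, the folds were 8.44 in H3K9me2, 7.61 in input 1 and 5.78 in input 2. Lars2, a mitochondrial leucyl-tRNA synthetase gene, had 7.55, 8.65 and 11.7, and the body of Cdk8, a Mediator kinase gene, 13.6, 20.1 and 20.98. Sfi1, a centrin-binding gene, held a pair of such peaks, 1 of them with a background of 14.3 fragments. A high local background marks sequence where many fragments were placed, in that library or in a control if 1 was used. Its median was 1.34 at H3K9me2 peaks with both inputs, 0.654 at all with input and 0.458 at those without, and its part in the overlap was not tested.

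Among input peaks without H3K9me2, most of the highest were intergenic and shared by both inputs. At chr12:120028666-120029013, 7.60 kb from Tmem196, the fold was 21.8 in input 1 and 13.9 in input 2. At chr16:98107452-98107764, 90.9 kb from B230307C23Rik, it was 20.6 and 12.5, and at chr7:145340986-145341453, 17.2 kb from Mrgprd, a sensory neuron receptor gene, 19.2 and 11.4. Near Fgf14 (chr14:124801573-124802240, 124 kb away) it was 18.1 and 12.7. Input 2 had 1 high site of its own, chr1:195241580-195241884, 64.9 kb from the complement receptor gene Cr2 (15.7, 34 fragments), which the CKO input list held too. At gene ends input 1 listed, among its highest, Pum2 (8.19), Atg5, needed for autophagosome formation (7.88), Ghr, the growth hormone receptor gene (7.87), Nck1, a signalling adaptor gene (7.85), and Lta4h, of leukotriene synthesis (7.68). Input 2 listed, among its highest, Rcn1, of calcium binding in the endoplasmic reticulum (8.20), Eya1, a transcriptional coactivator of myogenesis (7.92), Skp1, a ubiquitin ligase subunit gene (7.71), Hspa5, the endoplasmic reticulum chaperone BiP (7.68), and Lcor, a nuclear receptor corepressor gene (7.58). Each of these overlapped H3K4me3, whereas Gabrg3 (7.55 in input 1) and Sfi1 (7.42 in input 2), also among the 10 highest at gene ends, did not.

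Lists that took no part in the classes separated them further. H3K4me3 overlapped 9.90% (8.90 to 10.98) of H3K9me2 peaks without input, 36.1% (31.6 to 40.7) of those with input, 49.3% (47.4 to 51.2) of input 1 without H3K9me2 and 55.7% (52.8 to 58.7) of input 2. At gene ends, where most of that overlap lies, the shares were 80.2%, 85.6%, 87.5% and 91.6%, closer to each other than over all positions. In gene bodies they were 3.47%, 24.1%, 24.7% and 31.4%, and in intergenic sequence 0.900%, 13.9%, 10.8% and 13.1%. Away from gene ends, then, the interval of H3K9me2 without input lay below those of the other 3 classes.

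The H3K9me2 list of CKO muscle overlapped 33.2% (31.6 to 34.8) of Ctrl H3K9me2 peaks without input and 77.1% (72.9 to 80.9) of those with input. It overlapped 25.3% (23.7 to 26.995) and 22.4% (19.99 to 24.95) of the input peaks without H3K9me2. The CKO input list overlapped 16.9% (15.6 to 18.2), 67.6% (63.0 to 71.9), 43.0% (41.1 to 44.8) and 44.98% (42.04 to 47.9). The CKO lists are long, 12832 and 10931 peaks, and no comparison of genotypes is made with them here. Over all positions, H3K9me2 peaks without input had the higher share in the CKO H3K9me2 list and input peaks in the CKO input list, with intervals that did not overlap in either case. In neither CKO list were 1969 of the 3262 (60.4%, 58.7 to 62.05). In the CKO H3K9me2 list but not the CKO input were 743 (22.8%, 21.3 to 24.3), in the CKO input but not CKO H3K9me2 211 (6.47%, 5.65 to 7.37), and in both 339 (10.4%, 9.37 to 11.5). For input 1 without H3K9me2, 308 (11.4%) were found in CKO H3K9me2 alone and 786 in the CKO input alone, and for input 2 92 (8.18%) and 346 (30.8%).

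**Figure D4:**
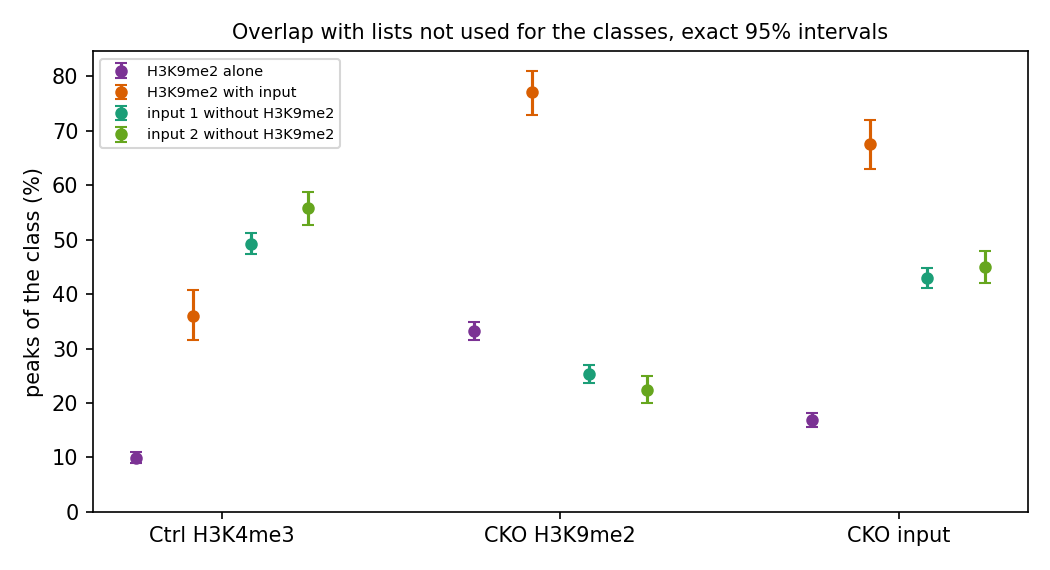
Share of peaks of each class (vertical axis, percent) that overlapped a peak of the Ctrl H3K4me3, CKO H3K9me2 or CKO input list, with exact 95% binomial intervals. H3K9me2 without input has 9.90% with H3K4me3, and 33.2% against 16.9% with the CKO H3K9me2 and CKO input lists.

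This overlap too followed peak height. Of H3K9me2 peaks without input, the CKO H3K9me2 list held 15.4% (13.2 to 17.8) at up to 5 summit fragments, 26.4% at 6, 41.5% at 7 to 8, 58.4% (53.9 to 62.8) at 9 to 12 and 65.5% (51.9 to 77.5) at 13 or more. The CKO input list held 11.1% (9.19 to 13.2) of the lowest and 39.7% (27.05 to 53.4) of the highest. The overlap with H3K4me3 was 11.4% (9.48 to 13.6) at the lowest, 4.20% (2.62 to 6.35) at 9 to 12 fragments and 1.72% (0.0436 to 9.24) at 13 or more. For input 1 without H3K9me2, H3K4me3 overlap was 39.6% at the lowest and 56.6% at 9 to 12 fragments. By position, 33.9% (31.9 to 35.9) of intergenic H3K9me2 peaks without input were in the CKO H3K9me2 list and 13.05% (11.7 to 14.5) in the CKO input list. Intergenic input peaks without H3K9me2 were in the CKO H3K9me2 list as often within counting error, 36.9% (33.7 to 40.1) for input 1 and 34.1% (29.1 to 39.4) for input 2. In the CKO input list they were at 32.8% (29.8 to 36.04) and 32.9% (27.99 to 38.2). Between genes, therefore, H3K9me2 without input and both inputs without H3K9me2 had overlapping intervals for CKO H3K9me2, and for the CKO input the interval of H3K9me2 without input lay below theirs. Intergenic H3K9me2 peaks with input stood above these 3 classes in both lists, at 83.5% (78.2 to 88.03) and 67.1% (60.7 to 73.03). At gene ends the shares of H3K9me2 without input were 35.3% (30.3 to 40.6) and 44.3% (38.96 to 49.6), and those of input 1 19.8% (17.6 to 22.1) and 55.1% (52.3 to 57.9).

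Counted by gene, those with H3K9me2 alone had a higher median length than those with an input alone. How many genes fell in each class depended on the inputs used, since 2 input libraries were set against 1 of H3K9me2. Without input 1, 976 genes had H3K9me2 alone, and input 2 had peaks at 946 genes in all. A gene was counted for a list when a peak touched its body or the 2 kb on either side. Of 21887 protein-coding genes, 743 (3.39%) had H3K9me2 alone, 2381 (10.9%) an input alone and 386 (1.76%) both. Any H3K9me2 peak was at 1129 genes (5.16%), and any input peak at 2767 (12.6%), with 2100 for input 1 (9.59%) and 946 for input 2 (4.32%). The median gene length was 65.5 kb for H3K9me2 alone, 39.2 kb for input alone and 116 kb for both, against 17.2 kb for all genes. H3K4me3 was at 546 of the 743 genes with H3K9me2 alone (73.5%, 70.2 to 76.6), 90.8% (89.6 to 91.9) of those with input alone and 63.8% of all. CKO H3K9me2 peaks were at 404 of the 743 (54.4%, 50.7 to 57.999) and at 26.4% (24.6 to 28.2) of the genes with input alone, against 15.4% of all. Longer genes have more room for a peak, and these shares were not matched for length. In genes under 20 kb, H3K4me3 peaks lay in 48.8% and CKO H3K9me2 peaks in 5.84%. The shares were 75.2% and 16.7% at 20 to 100 kb, and 84.4% and 39.0% at 100 to 400 kb. Over 400 kb they were 83.8% and 87.2%. Counts per length are given next.

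Per length, H3K9me2 and input were distributed differently over genes. In genes under 20 kb there were 1.46 H3K9me2 peaks without input per Mb of gene, 5.20 of input 1 and 2.04 of input 2. In genes over 400 kb the same values were 1.29, 0.604 and 0.193. Input density thus went down over the length classes, through 2.49 and 1.13 for input 1 and 1.15 and 0.517 for input 2. H3K4me3 density went down too, from 69.3 to 19.8, 6.95 and 2.14 per Mb. Gene ends, where input peaks lay most often, make up more of a short gene than of a long one. The decline with length is therefore not separate from the position of the peaks. H3K9me2 density went from 1.46 to 0.852 and 0.824 and was 1.29 in the longest genes, near the 1.23 per Mb of the chromosomes as a whole. At least 1 H3K9me2 peak without input lay in 179 of the 352 genes over 400 kb (50.9%, 45.5 to 56.2), against 32.95% (28.1 to 38.1) for input 1 and 12.2% (8.98 to 16.1) for input 2. The CKO lists, of other libraries, had 5.22 H3K9me2 and 2.36 input peaks per Mb in these genes and 7.81 and 23.1 in those under 20 kb. A peak in overlapping genes is counted once for each.

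**Figure D5:**
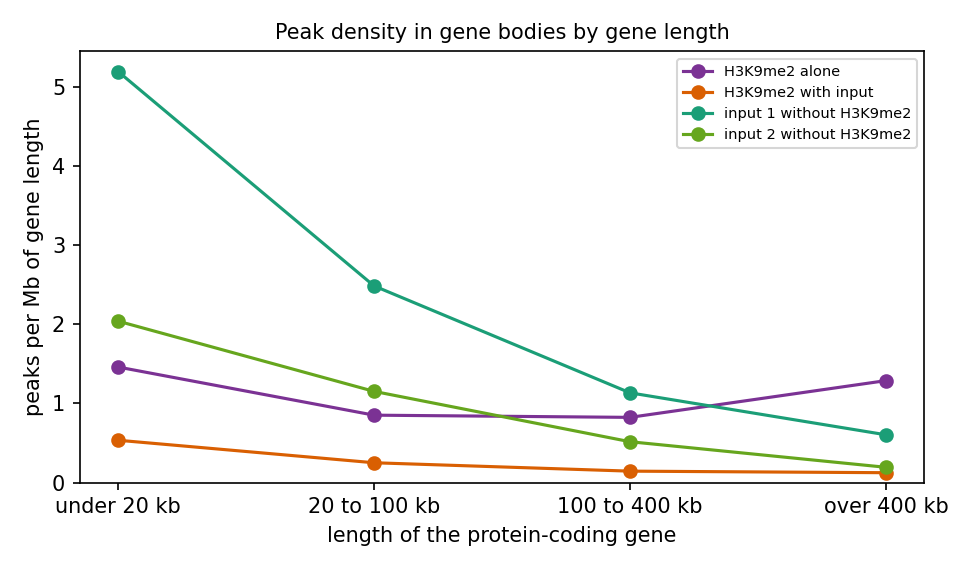
Peaks per Mb of gene length (vertical axis) for the 4 classes in protein-coding genes grouped by length (horizontal axis); points are single values per class with no replicate. Both inputs go down with gene length, and H3K9me2 without input is above both in genes over 400 kb at 1.29 per Mb.

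The 10 genes with most H3K9me2 peaks without input were all of 355 kb or more. Dpyd, which encodes the first enzyme of pyrimidine breakdown, had 6 over 871 kb (6.89 per Mb), with 0 input peaks in Ctrl and 4 CKO H3K9me2 peaks. Nell1, a secreted glycoprotein gene, had 5 (5.63 per Mb), as did Lrp1b, a gene of the LDL receptor family (2.43 per Mb), and Macrod2, an ADP-ribose hydrolase gene (2.50 per Mb), none of them with an input peak in Ctrl. Cntnap2, which encodes a neuronal adhesion protein of the neurexin family, had 5 as well, beside 2 peaks in each input. With 4 each followed its relative Cntnap5a (4.43 per Mb), Agbl4, a tubulin deglutamylase gene (3.16), Brinp3 (9.83), Pcdh15, an adhesion gene of hair cells (2.57), and Cnbd1 (11.3). The inputs listed 0 peaks at Cntnap5a, Brinp3 and Cnbd1, 2 each at Agbl4, and 3 and 1 at Pcdh15. CKO H3K9me2 peaks were listed at each of the 10, between 2 at Brinp3 and 13 at Lrp1b, Macrod2 and Cntnap2. An H3K4me3 peak was at 8 of the 10, the exceptions being Cntnap5a and Cnbd1.

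Genes of muscle contraction and metabolism had H3K9me2 at 1 member of the lists used here, a count too small to set against the share of all genes. Of 14 genes of the fast-fibre sarcomere, 11 of the slow-fibre sarcomere, 15 of atrophy and autophagy, 15 of oxidative metabolism and 12 of glycolysis, 0 had an H3K9me2 peak, and of 18 sarcomere structure genes 1 did, Nebl (fold 3.51), with input 1 there as well (3.87). These lists are short, 0 of 14 allows a share of up to 23.2% by the exact interval, and the interval of each of them holds the 5.16% of all genes. For an input alone, the intervals of these lists likewise hold the 10.9% of all genes. Their input peaks were at Tpm1, tropomyosin (3.78 in input 1), Myom1, of the M-band (4.64 in input 1), Ttn, titin (3.87 in input 2), Fbxo30, a ubiquitin ligase gene of atrophy (5.24 in input 1), Foxo3, the atrophy transcription factor gene (5.14), Atg7 (4.64) and Bnip3 (4.28), of autophagy and mitophagy. They were also at Tfam, which packages mitochondrial DNA (5.78 and 5.80 in the inputs), Ppargc1a, the coactivator PGC-1alpha (5.71 in input 1), and Cox5a, of respiratory complex IV (5.64 in input 2). H3K4me3 peaks were at 11 of the 14 fast-fibre, 4 of the 11 slow-fibre and 11 of the 18 sarcomere structure genes, and at 1 of 12 liver genes, against 63.8% of all genes. The slow-fibre and sarcomere structure genes were not above that share, so these short muscle lists do not check the labelled tissue. H3K4me3 peaks were also at 15 of 15 oxidative, 12 of 12 glycolysis and 15 of 15 housekeeping genes, which many tissues use.

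Among regulators, calcium-handling genes and genes of the neuromuscular junction, few members had H3K9me2, on lists too short to differ visibly from all genes (3.39% with H3K9me2 alone, 10.9% with input alone and 1.76% with both). Among 15 myogenic regulators, 1 had H3K9me2 alone and 3 input alone. Myf5, a determination factor of myoblasts, had an H3K9me2 peak of fold 6.17, no Ctrl input peak, no H3K4me3 peak and 1 CKO H3K9me2 peak. Input peaks were at Eya1 (7.92 in input 2), Msc, a repressor of myogenesis (6.91 in input 1), and Mef2a, a muscle transcription factor gene (5.22 in input 1). Of 14 genes of calcium handling, Jph1, which joins the sarcoplasmic reticulum to the transverse tubule, had H3K9me2 alone (4.95), Asph both (6.65 in H3K9me2 and 5.71 in input 1), and Stim1, Jph2 and Srl an input alone. At the neuromuscular junction Nrg1, a nerve-derived growth factor gene of 1084 kb, had H3K9me2 alone (4.31) and Utrn, utrophin, an input alone (4.25), of 15 genes.

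Markers of other cells of muscle are given next, where any H3K9me2 peak was at 5.16% of all genes. Of 10 satellite cell markers, which include Myf5, H3K9me2 was at Myf5 and, with input 2, at Calcr, the calcitonin receptor gene (4.31 and 3.76). Of 12 blood and immune markers it was at Adgre1, which encodes the macrophage protein F4/80 (5.34, with 2 peaks). Of 12 fibroadipogenic, 10 endothelial, 8 adipocyte and 8 Schwann cell markers 0 had an H3K9me2 peak, and input peaks were at Fbn1, Pdgfrb, Tek and Prx.

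Genes of synaptic adhesion, which are long, held H3K9me2 more often than all genes, as long genes in general did. Of 31 genes of synaptic adhesion, 12 had H3K9me2 alone, 1 input alone and 6 both, against 3.39%, 10.9% and 1.76% of all genes. Their median length was 809 kb. Per Mb of gene they had 1.58 H3K9me2 peaks without input, where all genes had 0.997, and 0.375 peaks of the 2 inputs summed, where all genes had 2.82. How much of this contrast goes with length was not tested. Genes over 400 kb as a whole had 1.29 H3K9me2 peaks without input per Mb, between the 0.997 and the 1.58. Of these genes, 50.9% held an H3K9me2 peak without input. They had 0.604 and 0.193 peaks of the inputs without H3K9me2. The summed input values above also count input peaks with H3K9me2, so the 2 sets are not alike. Cadm2 had 3 H3K9me2 peaks without input (highest fold 7.22), Opcml 2 (6.43) and Cntn4 2 (5.50). Both kinds of peak were at Adgrl3 (7.88 in H3K9me2, 4.43 in input 2), Lsamp (7.33, and 5.41 in input 1), Nlgn1 (6.62, and 5.11 in input 1) and Dscam (5.91, and 5.35 in input 1). Cntn3 had input 1 alone (6.18).

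Receptors for glutamate and GABA, cadherins and potassium channels are set here beside the shares of all genes, 3.39% with H3K9me2 alone, 10.9% with input alone and 1.76% with both. Of 37 receptors, 6 had H3K9me2 alone, 9 input alone and 4 both, with 1.18 H3K9me2 and 1.27 input peaks per Mb. The median length was 224 kb for these receptors and 148 kb for the cadherins, against 17.2 kb for all genes. An H3K9me2 peak without input lay in 12.6% of all genes of 100 to 400 kb. The shares of all genes were not matched for length. H3K9me2 alone was at Grik2 (9.87), Gabra3 (8.18), Gria2 (5.44) and Gria4 (5.41), and both kinds at Gabrg3, Gabra4, Gabrb1 and Grm3. Of 23 cadherins 2 had H3K9me2 alone, Cdh12 (6.43) and Cdh8 (4.21), and 3 both. Of 94 genes in the potassium channel list 6 had H3K9me2 alone and 11 input alone. Among the 6 were Kcnip4, a gene of a channel-interacting protein (5.68), and Kcnh5 (5.43). The density of 0.843 H3K9me2 peaks without input per Mb in this list was below the 0.997 of all genes. The 13 of 69 protocadherins with H3K9me2 alone include several overlapping Pcdha genes, of which Pcdha1, Pcdha10, Pcdha11 and Pcdha12 carried the same fold of 4.75 and share their last exons, so their count is not one of separate peaks.

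For clustered and repeated gene families, the shares of all genes to read the counts against were 3.39% with H3K9me2 alone and 10.9% with an input alone, and no difference between families was tested. Of 1110 olfactory receptors 9 had H3K9me2 alone (0.811%, 0.371 to 1.53), led by Olfr1280 (6.497), and 2 an input alone. Of 353 vomeronasal receptors 5 had H3K9me2 alone (1.42%, 0.461 to 3.27), led by Vmn2r26 (6.65), and 1 an input alone. Most of these genes are short. Of 397 numbered zinc finger genes 14 had H3K9me2 alone (3.53%, 1.94 to 5.85), led by Zfp619 (7.56), Zfp386 (6.57) and Zfp606 (6.47), 42 an input alone (10.6%, 7.73 to 14.0) and 3 both, all near the shares of all genes. Reads from near-identical members can be placed on the wrong copy, so the member is uncertain in such families. Of 39 Hox genes 0 had H3K9me2 and 5 an input, among them Hoxb13 (5.34 in input 2) and Hoxa3 (4.83 in input 1). Of 97 cytosolic ribosomal protein genes 1 had H3K9me2 alone, Rps23 (5.61), and 8 an input alone, led by Rpl23 (5.71 and 5.89). Of 25 enzymes and readers of H3K9 methylation 0 had H3K9me2 and 5 an input, with Kdm7a at 6.04 in input 2, and all 25 had H3K4me3. Among 14 imprinted genes H3K9me2 alone was at Ndn (3.51), and input alone at Snrpn, Igf2r, Peg10 and Igf2.

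The counts of the remaining lists are given against the same shares of all genes, and nothing particular to a list is read from them. Of 99 cytochrome P450 genes 3 had H3K9me2 alone, 5 an input alone and 2 both, namely Cyp2c38 and Cyp2c39, which carried the same folds (8.25 in H3K9me2 and 6.72 in input 1). Of 67 histone genes 3 had H3K9me2 alone, H2ac13, H2bc13 and H3c10, each at the same fold of 3.43. Of 63 serpins 2 had H3K9me2 alone, led by Serpinb6a (5.61), 1 an input alone and 1 both. Of 71 defensins 2 had H3K9me2 alone, led by Defb38 (6.24), and 1 an input alone. Of 62 C-type lectin and killer receptors 1 had H3K9me2 alone, Clec14a (5.03), and 1 an input alone. Of 10 Speer genes, 1 had an input alone and 1, Speer4e, both. Of 53 keratins 1, of 15 housekeeping genes 1 and of 12 liver genes 2 had an input alone, and 0 of these had H3K9me2.

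H3K9me2 peaks without input were spread thinly, with a few dense stretches. They fell into 1657 of 2669 megabases, 766 of which held 1 peak and 69 held 5 or more. Peaks of the 2 inputs without H3K9me2, pooled, fell into 1747, with 5 or more in 112. The densest megabase for H3K9me2 was chr5:15000001-16000000, around Speer4c, Speer4d and Cacna2d1, with 13 peaks without input (highest fold 9.89). It held 9 and 8 peaks of the inputs, and the median background at its H3K9me2 peaks was 2.06 fragments, where the library's coverage was 0.391. A stretch of gene copies at chr8:20000001-21000000, with Defb33, had 10 at a median background of 1.63, beside 7 peaks in each input. At the other dense stretches the median background was 0.490, 0.646 and 0.515 fragments, where that of all H3K9me2 peaks without input was 0.458. Around Fmnl2, an actin regulator gene, and Arl6ip6, chr2:53000001-54000000 held 11 H3K9me2 peaks and 0 input peaks in Ctrl, with 12 CKO H3K9me2 and 6 CKO input peaks. Around Arhgef26, Dhx36 and Gpr149, chr3:62000001-63000000 held 10 with 2 peaks of input 1, and around Atp10a, chr7:58000001-59000000 held 8 with 2 and 1 input peaks.

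The densest megabases of the inputs lay elsewhere. In the megabase of chromosome 9 that ends at position 4000000 there were 26 input peaks without H3K9me2, at a median background of 492 fragments. At chr6:47000001-48000000, which holds an end of Cntnap2 and the whole of Ezh2, a Polycomb methyltransferase gene, there were 22 at a background of 6.35. At chrY:90000001-91000000 there were 12 (5.90), at chr13:65000001-66000000 10 (0.672) and at chr4:147000001-148000000, with many zinc finger genes, 10 (0.657). H3K9me2 peaks in these stretches numbered 4, 3, 7, 6 and 4.

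By chromosome the classes had different densities. H3K9me2 peaks without input ran from 0.866 per Mb on chromosome 11, with 13.5 protein-coding genes per Mb, to 1.80 on chromosome 3, with 6.26, among the autosomes. Chromosome 11 had 1.303 peaks of input 1 per Mb and chromosome 3 1.02. Chromosomes 8 and 13 had 1.65 and 1.59 H3K9me2 peaks per Mb, and chromosome 17, with 11.5 genes per Mb, 0.947. Gene density did not order all chromosomes. Chromosome 7, with 14.3 genes per Mb, had 1.19. Chromosomes 12 and 18, with 5.80 and 5.83 genes per Mb, had 1.18 and 1.15. Chromosome X had 0.477 H3K9me2 and 0.262 input 1 peaks per Mb, and Y 0.114 and 0.137. Males carry a single copy of each, and the part of copy number in these densities was not tested.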

How the data were processed

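The libraries were made with a CUT&RUN kit, per the labels' protocols. The submitters' processing notes name Bowtie2, MACS2 and the mm10 build. Their versions, any pooling and the control used in peak calling: not given in the sources used here. For each peak the authors deposited a score (10 times −log10 q, as a whole number), a fold ratio of its summit over local background, and both its p-value and its q-value as −log10. Summit offsets were not used.

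From these, 3703 of 3726 H3K9me2, 3071 of 3117 input 1 and 1309 of 1347 input 2 peaks were kept, those on autosomes, X and Y. Summit fragments were recovered by matching fold and the −log10 p-value within 0.1% under a Poisson model, for 99.9%, 99.5% and 99.0% of peaks. In that match, fold had 1 added to both summit and background. The lowest local background gave each library's coverage. Shares carry exact 95% binomial intervals. Positions and the 21887 protein-coding genes came from RefSeq (GRCm38.p6, 2 kb window), promoter sequences from the RefSeq table of the same assembly. Chromosome length was counted from position 3000000 in steps of 100 bp. Overlap, annotation and fragment recovery were tested on simulated data.

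The members and the 36 gene lists were chosen with earlier results of these data known. Named were genes among the highest peaks by fold per class (by the lower of the H3K9me2 and input folds where both had a peak), 15 for H3K9me2 alone, 10 for others, and 10 at gene ends and bodies, the 10 genes with most peaks, up to 4 genes per list and class, 5 megabases per kind, and up to 3 promoters per class. For input alone the promoters were taken from peaks of both inputs, a narrowing made after the values were seen. Some genes the rule names are not reported here. Alternatives changed overlap, threshold, sequences, inputs, list length and gene window. Computation used scipy 1.17.1, pandas 2.3.3 and numpy 2.4.6 under Python 3.11.15, and plots matplotlib 3.10.9.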

Additional observations from a re-analysis of the deposited data

How the results depend on the processing

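Of 63 alternative values for 8 quantities, 30 stayed within the main 95% interval (for the gene count, within 1.5 times) and 33 moved. Under each alternative run for both, the intergenic share of H3K9me2 without input was above that of input without H3K9me2. With overlap of 50% of the shorter peak, 10.6% of H3K9me2 peaks had an input peak and 10.4% of input 1 peaks had H3K9me2. At q of 1e-05 or less the shares were 19.4% of H3K9me2, 19.6% of input 1 and 37.3% of input 2 peaks. The intergenic share was then 76.9% for H3K9me2 without input and 48.7% for input without H3K9me2 (main 32.2%), H3K4me3 overlap was 7.28%, CKO H3K9me2 overlap 48.7% and the genes with H3K9me2 alone 71. At or above the median fold of each list, the values were 10.1% of H3K9me2 and 10.3% of input 1 peaks shared, 70.2% intergenic, 7.93% with H3K4me3 and 411 genes. With all lists cut to 1309 peaks by p-value, 13.9%, 10.3% and 9.32% were shared, 73.2% and 34.0% intergenic, 1.95% had H3K4me3, 12.2% CKO H3K9me2, and 241 genes had H3K9me2 alone. With the CKO input added, 26.8% of H3K9me2 peaks had an input peak, and of the rest 5.46% had H3K4me3, 27.4% CKO H3K9me2, with 325 genes. Within 5 kb of genes counted as gene ends, 66.3% of H3K9me2 peaks without input were intergenic.

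Leaving out either Ctrl input in turn gave 4.996% to 9.78% of H3K9me2 peaks with an input peak (4.996% without input 1), 67.1% to 67.7% intergenic for those without, 30.5% to 32.9% intergenic for input without H3K9me2, 10.5% to 11.3% with H3K4me3, 34.1% to 36.0% with CKO H3K9me2 and 812 to 976 genes. No paired analysis was possible because 1 H3K9me2 library faces 2 inputs and no result comes from a test. Depth limits every class: at a median of 6 fragments a missing peak is weak evidence of a missing mark, and the authors' narrow peaks do not describe broad domains.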
